A study of Mus musculus with 19 samples.

Results

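Heat shock proteins and chaperonins were followed across all 4 groups of the study as 83 protein-coding genes out of the 12629 genes in the deposited expression table, of which 10750 are protein-coding. The genes were chosen by symbol alone, as those that begin with Hspa, Hspb, Hspd, Hspe, Hsph, Hsp90, Dnaj or Cct, Bag1 to Bag6, and Tcp1, Hsf1, Hsf2, Stip1, Ahsa1, Chordc1, Ptges3 and St13. By role, they are the HSP70 and HSP110 genes (12), the HSP90 genes (3), the small heat shock proteins (6), the DNAJA (4), DNAJB (10) and DNAJC (25) cochaperones, the subunits of the cytosolic chaperonin CCT (7) and of the mitochondrial chaperonin (2), the BAG cochaperones (6), other HSP70 and HSP90 cochaperones (6) and the heat shock factors (2). A further 6 genes with matching symbols are not protein-coding in the authors' gene table and were left out, among them Cct6a, the remaining subunit of CCT, which is listed there as a processed transcript. All 83 genes had passed the authors' filter on low counts, and no further filter was applied to them.

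The 19 libraries are RNA-seq profiles of GFP-positive cells sorted by FACS from adult cervical dorsal root ganglia (DRGs) and comprise 5 GFP-naive, 4 GFP-crush, 6 α9k1-naive and 4 α9k1-crush libraries. GFP ganglia received AAV5-fGFP, which carries membrane-targeted GFP under the CMV promoter. α9k1 ganglia received AAV5-α9-V5 (integrin α9 under the CAG promoter) together with AAV5-kindlin1-GFP (kindlin1, an integrin activator, under the CMV promoter). Crush ganglia had their dorsal roots crushed at the time of injection and naive ganglia did not. All were harvested 8 weeks later, so that every group had been injected with AAV5, dissociated and sorted. CMV and CAG are active in many cell types, so that in these groups the choice of neurons rests on AAV5 and on the sort. The study's methods name adult male Lewis rats, trypsin and collagenase, whereas the sample labels name C57BL/6 mice and papain, and the reads were aligned to the mouse genome. This difference could not be settled here. Gene positions, promoters, pseudogenes and shared sequence given below are those of the mouse reference and may not hold for the animals used. The labels do not say which animals gave which library, so that p-values measure the spread between these libraries.

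Chaperones hold unfolded proteins and help them to fold. HSP70 proteins bind exposed stretches of a protein in cycles that are started by a J-domain (DNAJ) partner and reset by nucleotide exchange factors such as HSP110 and BAG proteins. HSP90 acts later on a narrower set of proteins such as kinases and receptors, and chaperonins enclose proteins such as actin and tubulin in a chamber. Heat shock factor 1 (HSF1) induces many of these genes within minutes of heat or other proteotoxic stress. It binds heat shock elements, which are inverted repeats of the block GAA in their promoters. The chaperones of the endoplasmic reticulum (ER) are induced by the unfolded protein response instead. In sensory neurons, small heat shock proteins are known for their induction by axotomy, and cell dissociation is known to induce heat shock and immediate early genes.

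Depth per library was 36.4 to 87.6 M read pairs, the share of reads aligned was 47.5% to 54.1%, and 3.87% to 4.05% of aligned bases differed from the reference. Values are the deposited log2 values, which the authors had normalized for length and depth of genes by cqn. On this scale, library medians lie between 4.30 and 4.48. Fermt1, which encodes kindlin1, was higher in α9k1-naive than in GFP-naive (log2FC = 4.79) and in α9k1-crush than in GFP-crush (log2FC = 6.21). Itga9, which encodes the integrin, was higher too, with log2FC = 1.72 without crush and 5.51 after crush. Its log2FC was 3.51 in α9k1-crush versus α9k1-naive (adjusted p = 0.0404) and that of Fermt1 was 1.67 (adjusted p = 0.0591), so that the levels of both transgenes differed between the 2 α9k1 groups. Markers of neurons were measured in all groups (9 of 9, summed level 13.23 to 13.60 in GFP-naive, 12.52 to 12.86 in α9k1-naive, 13.82 to 14.34 in GFP-crush and 13.83 to 14.33 in α9k1-crush, as log2 of the sum). So were those of satellite glia (7 of 7, 15.56 to 15.94, 16.27 to 16.78, 14.65 to 14.96 and 14.11 to 14.69). Markers of macrophages and microglia (7 of 9 measured) had 8.68 to 9.26 in GFP-naive, 10.38 to 10.85 in α9k1-naive, 10.95 to 11.63 in GFP-crush and 10.53 to 11.27 in α9k1-crush, and 5 of them were called higher in α9k1-naive and 5 in GFP-crush, each against GFP-naive. Their part in the chaperone values was not tested. In such bulk libraries, fewer cells of a type and less RNA per cell cannot be told apart.

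Each comparison was made with limma over all 12629 genes, with 3 principal components of the library metrics as covariates, and genes with a Benjamini-Hochberg adjusted p under 0.1 (two-sided) are described as called. The log2 fold change of that fit is given as log2FC. Without crush, α9k1-naive versus GFP-naive gave 10 of the 83 genes higher and 12 lower, where 11.4% of all genes were called higher and 17.6% lower. After crush, α9k1-crush versus GFP-crush gave 3 genes higher (Hspa1a, Hspa1b and Dnajb1) and 0 lower, against 0.728% and 0.182% of all genes, and 11 of the 83 had an unadjusted p under 0.05. Hspa1a and Hspa1b share most of their sequence, so that these 3 calls are not 3 separate measurements. Crush alone (GFP-crush versus GFP-naive) moved 6 up and 8 down, against 7.39% and 15.7% of all genes. With libraries centred on their medians, these counts became 13 and 6, against 14.5% and 9.34% of all genes, as the median log2FC of all genes moved from -0.08 to 0.06. With the transgenes, α9k1-crush versus α9k1-naive gave 3 higher and 5 lower, against 4.47% and 5.27% of all genes. With only these 2 groups in the fit, 0 were called higher and 0 lower there, against 0.507% and 1.09% of all genes. In all, 29 of the 83 genes were called in at least 1 of the 4 comparisons, 54 in none, and Dnajb1 was the single gene called in all 4. The 29 are 34.9% of the members, and 44.4% of all 12629 genes were called in at least 1 comparison. The median log2FC of the 83 genes and of all genes was -0.08 and -0.08, 0.00 and 0.01, 0.03 and -0.08, and 0.10 and 0.00 in the same order of comparisons. The median size of log2FC, regardless of sign, was 0.25, 0.16, 0.15 and 0.29 for the 83 genes and 0.27, 0.32, 0.25 and 0.36 for all genes. Comparisons that share a group (GFP-naive enters 2 of them, for instance) share its libraries, and their values are given side by side only.

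**Figure D1:**
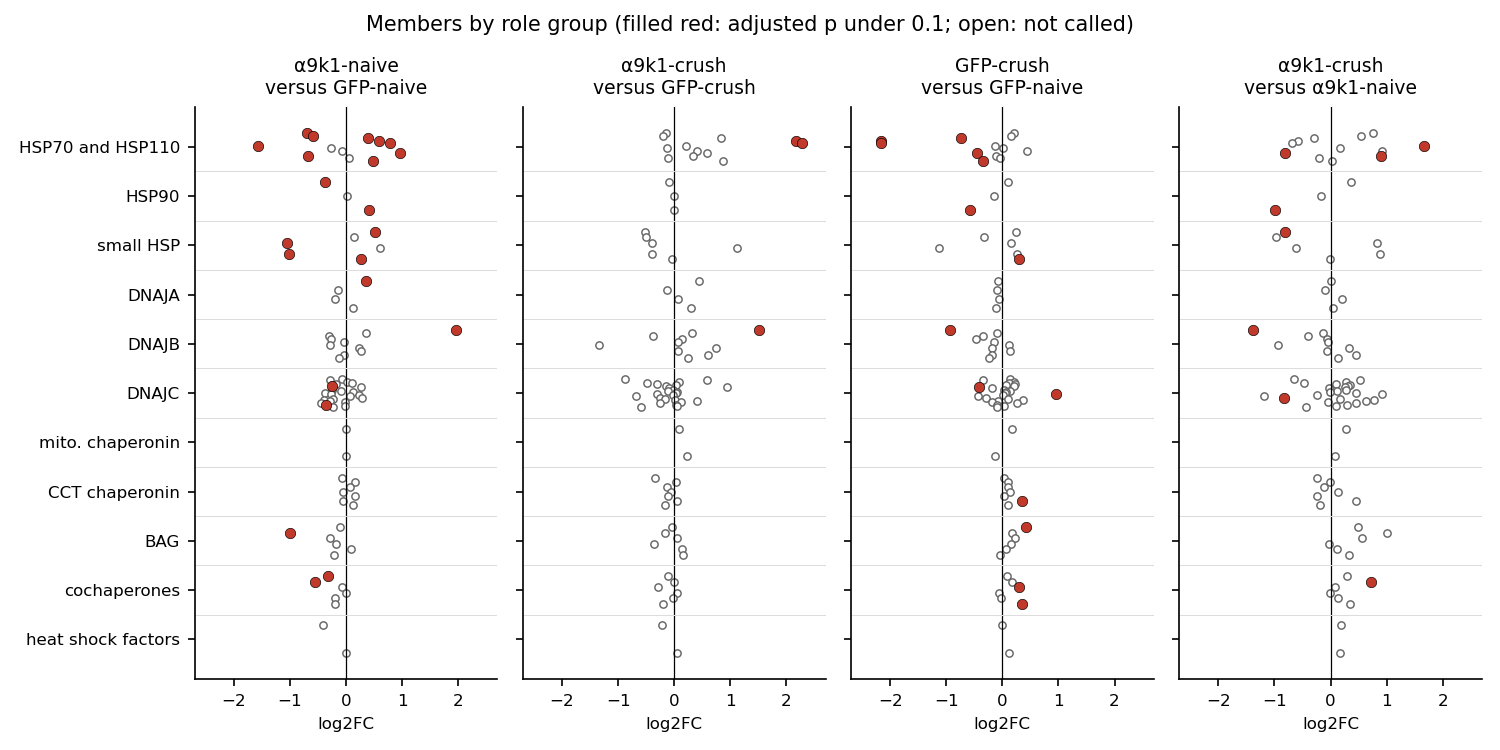
Log2 fold change (limma, x axis) of each of the 83 genes by role (y axis, 11 groups) in the 4 comparisons (panels), with red points for genes called at an adjusted p under 0.1 and open points for the others. CCT subunits lie between -0.35 and 0.46 in every panel, whereas HSP70 and DNAJB genes reach from -2.17 to 2.27.

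The inducible HSP70 genes Hspa1a and Hspa1b, a tandem pair that encodes the same protein and that HSF1 strongly induces, were lowest after crush in GFP ganglia and highest without crush in α9k1 ganglia. Hspa1a (ENSMUSG00000091971, chr17:34969190-34972156, minus strand) had 6.21, 6.35, 6.36, 6.61 and 6.31 in the 5 GFP-naive libraries and values from 6.33 to 6.86 with a median of 6.82 in the 6 α9k1-naive libraries. After crush it had 4.02, 4.30, 4.79 and 4.57 in GFP-crush and 5.77, 5.81, 5.23 and 5.97 in α9k1-crush. All 4 GFP-crush libraries were below all others, all 4 α9k1-crush libraries were below both naive groups, and the naive groups overlapped. Hspa1a fell 4.50-fold with crush in GFP ganglia (log2FC = -2.17, SE = 0.19, adjusted p = 1.74e-05) and was 4.49-fold higher in α9k1-crush than in GFP-crush (log2FC = 2.17, SE = 0.40, adjusted p = 0.0204), a call that was lost without α9k1-naive replicate 4 (adjusted p = 0.10). The higher value in α9k1-naive (log2FC = 0.58, SE = 0.19, adjusted p = 0.0368) was not called without covariates (log2FC = 0.30, adjusted p = 0.145), and an exact permutation test of the deposited values gave p = 0.0519. In α9k1-crush versus α9k1-naive, log2FC was -0.58 (adjusted p = 0.332).

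Hspa1b (ENSMUSG00000090877, chr17:34956436-34959238, minus strand) showed the same order of groups at a higher level on the deposited scale. Its values were 8.49, 8.49, 8.41, 8.72 and 8.49 in GFP-naive and from 8.81 to 9.30 with a median of 9.11 in α9k1-naive. After crush they were 6.07, 6.19, 7.01 and 6.64 in GFP-crush and 8.08, 8.19, 7.65 and 8.16 in α9k1-crush. None of the 4 groups overlapped another, in the order GFP-crush, α9k1-crush, GFP-naive and α9k1-naive. Hspa1b was 1.72-fold higher in α9k1-naive than in GFP-naive (log2FC = 0.78, SE = 0.19, adjusted p = 0.00941). It fell 4.51-fold with crush in GFP ganglia (log2FC = -2.17, SE = 0.19, adjusted p = 1.74e-05), and was 4.82-fold higher in α9k1-crush than in GFP-crush (log2FC = 2.27, SE = 0.42, adjusted p = 0.0179, lost without GFP-crush replicate 2 with adjusted p = 0.145). On deposited values, the group means after crush differed by 1.27 for Hspa1a and 1.55 for Hspa1b, less than in the fit. The exact permutation p was 0.0286 for each, the smallest that 4 against 4 libraries can give. In α9k1-crush versus GFP-crush, 20.0% of all genes lay higher and 20.8% lower without overlap, which gives this same p. Hspa1a and Hspa1b cannot be read as separate measurements, as 63.8% of the 31-base words in the transcripts of Hspa1a also occur in Hspa1b and 67.7% of those of Hspa1b occur in Hspa1a. Hspa1a also overlaps the exons of Gm20481 on the other strand over 564 bases, and the libraries do not keep strand.

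The promoters of both genes are shown as they carry the heat shock element named above, together with those of Dnajb1 and Hspb1, whose values follow. Each line holds the 150 bases before the RefSeq transcription start (GRCm38.p6), 5′ to 3′ on the strand of the gene, and capitals mark the blocks of GAANNTTC, 1 of the forms of the element searched:
Hspa1a (chr17:34972157-34972306, minus strand): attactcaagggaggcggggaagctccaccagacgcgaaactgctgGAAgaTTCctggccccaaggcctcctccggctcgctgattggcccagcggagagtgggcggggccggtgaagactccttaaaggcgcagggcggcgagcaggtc
Hspa1b (chr17:34959239-34959388, minus strand): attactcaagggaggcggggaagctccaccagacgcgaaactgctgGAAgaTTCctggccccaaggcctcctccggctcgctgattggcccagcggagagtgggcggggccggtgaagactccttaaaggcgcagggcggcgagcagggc
Dnajb1 (chr8:83608025-83608174, plus strand): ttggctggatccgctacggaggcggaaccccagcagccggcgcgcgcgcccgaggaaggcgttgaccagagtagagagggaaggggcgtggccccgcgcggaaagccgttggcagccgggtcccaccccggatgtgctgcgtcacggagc
Hspb1 (chr5:135887769-135887918, plus strand): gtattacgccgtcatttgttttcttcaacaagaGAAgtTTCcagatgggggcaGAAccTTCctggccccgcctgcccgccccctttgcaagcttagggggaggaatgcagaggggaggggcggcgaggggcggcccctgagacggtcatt

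The windows of Hspa1a and Hspa1b are the same in 99.3% of their bases, as 1 base differs, at 2 bases before the start, and each holds 1 element that begins 104 bases before the start. The window of Hspb1 holds 2, at 117 and 97 bases before the start, and no match lies in that of Dnajb1.

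Dnajb1 (ENSMUSG00000005483, chr8:83608175-83611902, plus strand), the HSP40 partner that feeds clients to inducible HSP70, had the widest range of group means of the 83 genes, 2.81, with a pooled SD of 0.21 within groups. It had 6.30, 6.62, 6.68, 6.60 and 6.38 in GFP-naive and values from 8.19 to 8.79 with a median of 8.39 in α9k1-naive. The crush libraries had 5.78, 5.55, 5.64 and 5.61 in GFP-crush and 6.43, 6.68, 6.15 and 6.57 in α9k1-crush. Every α9k1-naive library was above, and every GFP-crush library below, all other libraries, whereas GFP-naive and α9k1-crush overlapped. Without crush it was 3.90-fold higher with α9k1 (log2FC = 1.96, SE = 0.15, adjusted p = 2.67e-07), and with crush it fell 1.91-fold in GFP ganglia (log2FC = -0.93, SE = 0.15, adjusted p = 0.00139) and 2.60-fold in α9k1 ganglia (log2FC = -1.38, SE = 0.27, adjusted p = 0.00913). After crush it was 2.86-fold higher with α9k1 in the fit (log2FC = 1.52, SE = 0.33, adjusted p = 0.0483) and 1.76-fold higher in the group means. That call was lost without α9k1-crush replicate 4, α9k1-naive replicates 3 and 4, GFP-crush replicate 2 or GFP-naive replicates 1 and 3 (adjusted p = 0.111 to 0.179). It was also lost with quantile normalization (adjusted p = 0.101). With only the 2 crush groups in the fit, none of the 3 calls after crush was made (adjusted p = 0.60 to 0.753). With the replicate number as a block, 1 of the 83 genes was called higher after crush (0.420% of all genes). Dnajb4, a close relative of Dnajb1 that is also heat-inducible, had 5.66, 5.78, 5.55 and 5.53 in GFP-crush and 6.66, 6.42, 6.45 and 6.42 in α9k1-crush. These did not overlap (exact permutation p = 0.0286), as was the case in this direction for 20.0% of all genes. Dnajb4 was called in none of the comparisons (log2FC = 0.75, adjusted p = 0.490 after crush).

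Hsph1 (ENSMUSG00000029657, chr5:149614287-149636376, minus strand), the heat-inducible HSP110 that resets HSP70, had 6.75, 6.78, 6.69, 6.78 and 6.52 in GFP-naive and values from 7.10 to 7.74 with a median of 7.49 in α9k1-naive. After crush, values were 6.40, 6.45, 6.02 and 6.13 in GFP-crush and 7.43, 7.17, 7.46 and 7.63 in α9k1-crush. Both α9k1 groups lay above both GFP groups without overlap. It was higher in α9k1-naive than in GFP-naive (log2FC = 0.48, SE = 0.12, adjusted p = 0.0107) and lower in GFP-crush compared with GFP-naive (log2FC = -0.35, SE = 0.12, adjusted p = 0.0658), the second of which was lost without α9k1-crush replicates 3 and 4, GFP-crush replicate 4 or GFP-naive replicates 2 and 3 (adjusted p = 0.101 to 0.152) and with libraries centred on their medians (adjusted p = 0.285). After crush its group means differed by 1.17 (exact permutation p = 0.0286), while the fit gave log2FC = 0.87 (SE = 0.26, adjusted p = 0.262). Dnaja1 (ENSMUSG00000028410, chr4:40722150-40737149, plus strand), a DNAJA partner of cytosolic HSP70, followed the same pattern at a smaller size, with 7.90, 7.89, 7.85, 7.88 and 7.91 in GFP-naive and values from 8.19 to 8.34 with a median of 8.27 in α9k1-naive. In the crush groups, values were 7.82, 7.90, 7.79 and 7.77 in GFP-crush and 8.24, 8.03, 8.23 and 8.47 in α9k1-crush. Its α9k1 libraries were all above the GFP libraries. The difference was called without crush (log2FC = 0.35, SE = 0.10, adjusted p = 0.0201, lost without α9k1-naive replicate 6 with adjusted p = 0.102) and not after it (log2FC = 0.43, adjusted p = 0.578). Dnaja1 shares 22.6% of its 31-base words with other genes and overlaps Smu1 on the other strand over 608 bases.

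**Figure D2:**
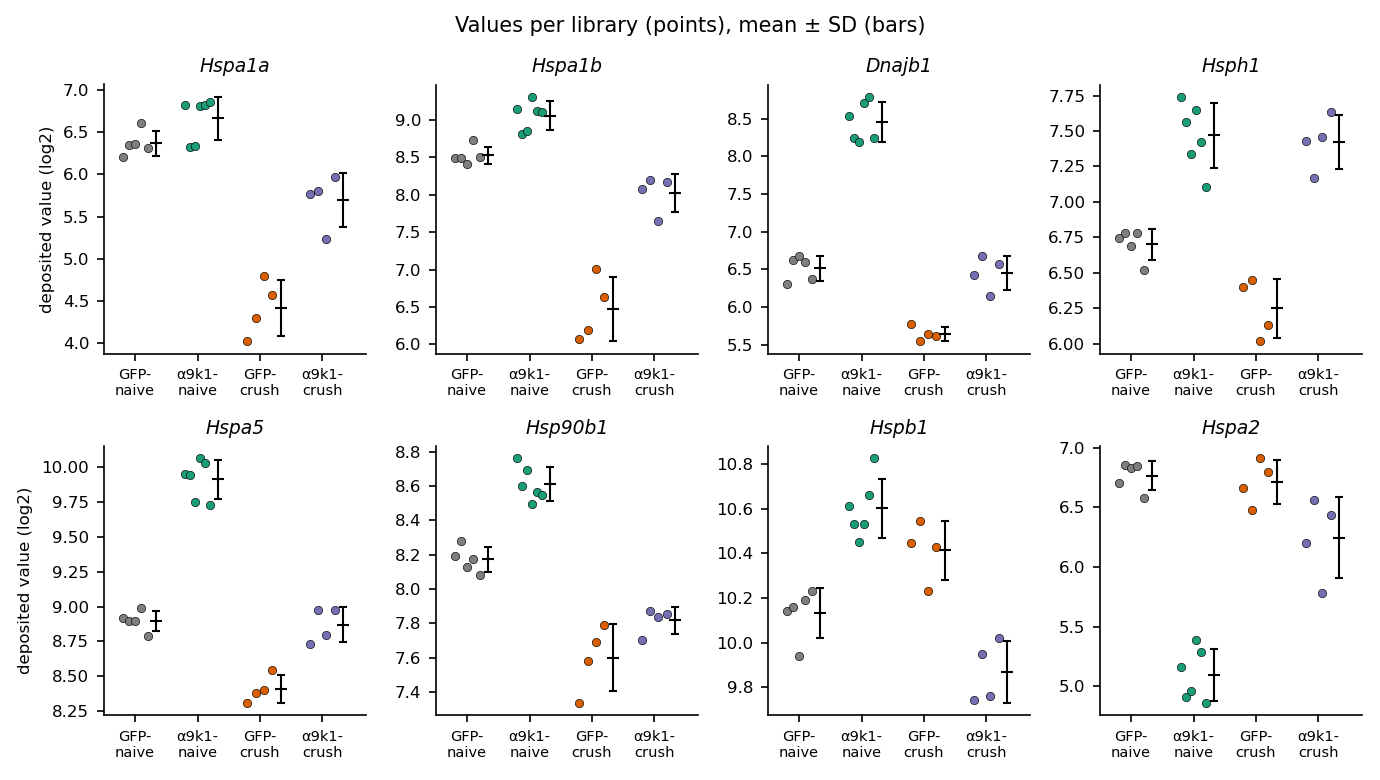
Deposited log2 values (y axes) of 8 chaperone genes in the 19 libraries by group (x axes), with each point 1 library and bars for the mean ± SD. GFP-crush has the lowest and α9k1-naive the highest mean for Dnajb1, Hspa1b, Hspa5 and Hsp90b1, whereas Hspa2 is lowest in α9k1-naive.

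Immediate early genes, which dissociation is known to induce, differed between the same groups. All 13 genes of the list (Fos, Jun, Egr1, Atf3 and others) were called higher in α9k1-naive than in GFP-naive (median log2FC = 1.44), and 10 were higher in α9k1-crush than in GFP-crush (2.12). All 13 were lower in GFP-crush compared with GFP-naive (-1.11) and 5 were lower in α9k1-crush compared with α9k1-naive (-0.65). The log2 of their summed level was 10.99 to 11.43 in GFP-crush, 12.18 to 12.48 in GFP-naive, 12.46 to 13.09 in α9k1-crush and 13.80 to 14.24 in α9k1-naive. Their part in the values of Hspa1a, Hspa1b, Dnajb1 and Hsph1 was not tested.

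Hspa8 (ENSMUSG00000015656, chr9:40800984-40805200, plus strand), the constitutive HSP70 (HSC70) that also uncoats clathrin vesicles, had 3.63, 4.23, 3.64, 3.94 and 3.48 in GFP-naive and values from 3.03 to 3.60 with a median of 3.38 in α9k1-naive. After crush it had 3.60, 3.63, 3.62 and 3.66 in GFP-crush and 3.86, 3.67, 4.16 and 3.98 in α9k1-crush. The naive groups overlapped, and α9k1-crush lay above GFP-crush and α9k1-naive. Hspa8 was lower in α9k1-naive compared with GFP-naive (log2FC = -0.67, SE = 0.13, adjusted p = 0.00161) and higher in α9k1-crush than in α9k1-naive (log2FC = 0.90, SE = 0.23, adjusted p = 0.0337, lost without α9k1-naive replicate 4 with adjusted p = 0.171). Its deposited values lie below the medians of the libraries, and 44.8% of its 31-base words also occur in other genes, most of them in the pseudogene Gm15459, so that its level is uncertain.

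Hsp90aa1 (ENSMUSG00000021270, chr12:110690605-110702728, minus strand), the stress-inducible cytosolic HSP90, had 10.20, 10.05, 10.15, 9.97 and 10.25 in GFP-naive and values from 9.42 to 9.98 with a median of 9.49 in α9k1-naive. The crush libraries had 10.29, 10.31, 10.26 and 10.38 in GFP-crush and 10.18, 9.99, 10.12 and 10.15 in α9k1-crush. It was highest in GFP-crush, where inducible HSP70 was lowest, and 1 α9k1-naive library reached the range of GFP-naive. The gene was called lower in α9k1-naive compared with GFP-naive (log2FC = -0.37, SE = 0.11, adjusted p = 0.0304) and not called in the other comparisons. Of its 31-base words, 51.5% also occur in other genes, and the pseudogene that shares most of them, Gm12346, was lower too (log2FC = -0.52). Hsp90ab1, the constitutive form, stayed within 7.84 to 7.96 in GFP-naive, 7.73 to 8.10 in α9k1-naive, 7.71 to 7.92 in GFP-crush and 7.86 to 8.03 in α9k1-crush. Its groups overlapped, and the 95% interval of log2FC was -0.18 to 0.22 in α9k1-naive versus GFP-naive and -0.44 to 0.44 in α9k1-crush versus GFP-crush.

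The major ER chaperones Hspa5 and Hsp90b1 were higher with α9k1 in the absence of crush and lower with crush in GFP and in α9k1 ganglia. Hspa5 (ENSMUSG00000026864, chr2:34771970-34777547, plus strand), the HSP70 of the ER (BiP) and a target of the unfolded protein response, had 8.92, 8.90, 8.90, 8.99 and 8.79 in GFP-naive and values from 9.73 to 10.06 with a median of 9.95 in α9k1-naive. After crush, values were 8.31, 8.38, 8.40 and 8.54 in GFP-crush and 8.73, 8.97, 8.80 and 8.98 in α9k1-crush. Every α9k1-naive library was above, and every GFP-crush library below, all others, and GFP-naive and α9k1-crush overlapped. Without crush Hspa5 was 1.94-fold higher with α9k1 (log2FC = 0.96, SE = 0.11, adjusted p = 1.5e-05). With crush it fell in GFP ganglia (log2FC = -0.44, SE = 0.11, adjusted p = 0.0145; adjusted p = 0.0641 with libraries centred on their medians) and in α9k1 ganglia (log2FC = -0.81, SE = 0.19, adjusted p = 0.0246). After crush the groups did not overlap (exact permutation p = 0.0286), and the fit gave log2FC = 0.59 (adjusted p = 0.446). Hsp90b1 (ENSMUSG00000020048, chr10:86690209-86705509, minus strand), the HSP90 of the ER (GRP94), which folds integrins and Toll-like receptors, had 8.19, 8.28, 8.13, 8.18 and 8.08 in GFP-naive and values from 8.50 to 8.76 with a median of 8.58 in α9k1-naive. In the crush groups, values were 7.34, 7.58, 7.69 and 7.79 in GFP-crush and 7.70, 7.87, 7.84 and 7.86 in α9k1-crush. The naive groups lay apart from each other and above all crush libraries, and the crush groups overlapped. It was higher in α9k1-naive (log2FC = 0.41, SE = 0.11, adjusted p = 0.0169) and fell with crush in GFP ganglia (log2FC = -0.58, SE = 0.11, adjusted p = 0.00422) and in α9k1 ganglia (log2FC = -0.999, SE = 0.20, adjusted p = 0.0104). With α9k1 after crush, log2FC was -0.01 (95% interval -0.53 to 0.51). Exons of Hsp90b1 overlap 1810014B01Rik on the other strand over 415 bases.

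Of the other ER members, Hspa13, an HSP70-like protein of microsomes, had 4.75, 5.31, 5.44, 5.18 and 4.95 in GFP-naive and values from 5.38 to 5.48 with a median of 5.45 in α9k1-naive. After crush it had 4.33, 4.43, 4.54 and 4.78 in GFP-crush and 4.55, 5.06, 4.66 and 4.93 in α9k1-crush. It fell with crush in GFP ganglia (log2FC = -0.74, SE = 0.15, adjusted p = 0.00692), and its higher value in α9k1-naive (log2FC = 0.39, SE = 0.15, adjusted p = 0.0837) was lost without α9k1-crush replicate 3, α9k1-naive replicates 1, 2, 3, 4 and 6, GFP-crush replicates 2 and 3 or GFP-naive replicates 1, 4 and 5 (adjusted p = 0.102 to 0.203). The J-domain partners of BiP Dnajb11, Dnajb9, Dnajc3, Dnajc10 and Dnajc1 were called in none of the comparisons. Dnajb11 (ERdj3) had 5.32 to 5.98 in GFP-naive and 5.92 to 6.29 in α9k1-naive (log2FC = 0.35, adjusted p = 0.102). Dnajb9 (ERdj4) had 5.46, 5.62, 5.63, 5.51 and 5.51 in GFP-naive and values from 5.15 to 5.45 with a median of 5.38 in α9k1-naive, a difference in the other direction (log2FC = -0.13, adjusted p = 0.392). Dnajc3 (p58IPK), which restrains the ER stress kinase PERK, had 4.49, 4.16, 4.33 and 4.40 in GFP-crush and 3.55, 3.70, 3.33 and 3.85 in α9k1-crush, without overlap (log2FC = -0.16, adjusted p = 0.907). Dnajc10 (ERdj5), a reductase of the ER, had 4.91, 5.41, 4.98 and 5.22 in GFP-crush and 6.39, 5.65, 6.40 and 6.32 in α9k1-crush, which do not overlap either but in the other direction (log2FC = 0.59, adjusted p = 0.644).

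The element that the unfolded protein response uses, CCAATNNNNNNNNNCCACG on either strand, was searched after the values of Hspa5 and Hsp90b1 had been seen. It occurs in 0.119% of the 32851 RefSeq promoters and in those of 3 of the 66 matched genes, and its matches are shown here with the conserved blocks in capitals:
Hspa5 (chr2:34772025-34772043, plus strand, 65 bases before the start): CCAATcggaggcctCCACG
Hsp90b1 (chr10:86705638-86705656, minus strand, 212 bases before the start): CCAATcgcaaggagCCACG
Hsp90b1 (chr10:86705533-86705551, minus strand, 107 bases before the start, in reverse): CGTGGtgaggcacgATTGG
Dnajc3 (chr14:118937827-118937845, plus strand, 105 bases before the start): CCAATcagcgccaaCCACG

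Hspa5 and Hsp90b1 are called in the same direction in 3 comparisons, and Dnajc3, with the same element, was called in none. Among 18 other genes of ER folding and the unfolded protein response, 3 were called higher in α9k1-naive than in GFP-naive, namely the stress factor Ddit3 (log2FC = 0.93, adjusted p = 4.42e-05), the degradation factor Herpud1 (log2FC = 0.80, adjusted p = 0.000761) and the lectin chaperone Canx (log2FC = 0.30, adjusted p = 0.0504), and 3 were lower, namely Pdia3, Syvn1 and Derl2, where 11.4% and 17.6% of all genes were called. In GFP-crush versus GFP-naive, 0 were higher and 5 were lower (Pdia4, Sdf2l1, Canx, P4hb and Calr, log2FC = -0.60 to -0.29), against 7.39% and 15.7% of all genes. In α9k1-crush versus α9k1-naive, 0 were higher and Ddit3 was lower (log2FC = -0.71, adjusted p = 0.0580), and in α9k1-crush versus GFP-crush, 0 were called in either direction. The median log2FC of these 18 genes was 0.10, -0.18, -0.30 and 0.17 in that order. Satellite glia markers moved in the same comparisons as Hspa5 and Hsp90b1. Of 7, 3 were called higher (Fabp7, Apoe and Glul) and 1 lower (Sox10) in α9k1-naive versus GFP-naive, 5 were lower with crush in GFP ganglia and 4 in α9k1 ganglia. Their part in the values of Hspa5 and Hsp90b1 was not tested.

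Small heat shock proteins bind unfolding proteins without ATP. The 6 genes counted here were grouped by the symbol Hspb and a number alone, Hspb11 among them, and not by function. In α9k1-naive compared with GFP-naive, 2 of the 6 were called higher and 2 lower (11.4% and 17.6% of all genes). Hspb1 (ENSMUSG00000004951, chr5:135887919-135889563, plus strand), known as HSP27 and induced by axotomy in sensory neurons, had 10.14, 10.16, 9.94, 10.19 and 10.23 in GFP-naive and values from 10.45 to 10.83 with a median of 10.57 in α9k1-naive. The crush libraries had 10.45, 10.55, 10.23 and 10.43 in GFP-crush and 9.74, 9.95, 9.76 and 10.02 in α9k1-crush. With α9k1 it was higher without crush and lower after crush, in both cases without overlap. The fit called it higher in α9k1-naive than in GFP-naive (log2FC = 0.52, SE = 0.12, adjusted p = 0.00759, lost without α9k1-naive replicate 6 with adjusted p = 0.182) and lower in α9k1-crush compared with α9k1-naive (log2FC = -0.81, SE = 0.22, adjusted p = 0.0466, lost without α9k1-naive replicates 1 and 4 or GFP-crush replicate 2 with adjusted p = 0.101 to 0.146), and not in α9k1-crush versus GFP-crush (log2FC = -0.53, adjusted p = 0.593, exact permutation p = 0.0286 on the deposited values). Of its 31-base words, 55.4% also occur in its pseudogene Hsp25-ps1 or other genes. Hspb8 (HSP22), the partner of Bag3 in selective autophagy, had 7.68, 7.40, 7.66, 7.47 and 7.81 in GFP-naive and values from 7.68 to 7.93 with a median of 7.87 in α9k1-naive. After crush, values were 7.79, 8.03, 7.85 and 7.77 in GFP-crush and 8.09, 8.13, 8.23 and 8.06 in α9k1-crush. It was lowest in GFP-naive and highest in α9k1-crush, with overlap between neighbouring groups except for α9k1-crush, which lay above all others. In the fit, α9k1-crush was not higher, with log2FC = -0.04 (adjusted p = 0.981) against GFP-crush and -0.01 (adjusted p = 0.982) against α9k1-naive, while without covariates these were 0.27 and 0.31. It was called higher in α9k1-naive than in GFP-naive (log2FC = 0.26, SE = 0.10, adjusted p = 0.0838, lost without α9k1-crush replicate 4, α9k1-naive replicates 2, 3, 5 and 6 or GFP-naive replicates 1, 2 and 4 with adjusted p = 0.1003 to 0.348) and in GFP-crush than in GFP-naive (log2FC = 0.29, SE = 0.10, adjusted p = 0.0747, lost without α9k1-crush replicate 3, GFP-crush replicates 1 and 2 or GFP-naive replicates 2 and 4 with adjusted p = 0.107 to 0.278).

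Hspb2 and Hspb6, small heat shock proteins known from muscle, were lower in α9k1-naive. Hspb2 (ENSMUSG00000038086, chr9:50751072-50752354, minus strand) had 5.51, 5.39, 5.52, 5.62 and 5.46 in GFP-naive and values from 3.72 to 4.54 with a median of 4.08 in α9k1-naive. In the crush groups, values were 5.80, 5.56, 6.13 and 6.12 in GFP-crush and 4.62, 4.91, 3.93 and 4.95 in α9k1-crush. Both α9k1 groups were below both GFP groups without overlap. It was 2.08-fold lower in α9k1-naive compared with GFP-naive (log2FC = -1.06, SE = 0.21, adjusted p = 0.00237), and in α9k1-crush versus GFP-crush log2FC was -0.39 (adjusted p = 0.867; exact permutation p = 0.0286). Hspb2 overlaps the small heat shock gene Cryab on the other strand over 252 bases, and Cryab was called in none of the comparisons (log2FC = -0.12 in α9k1-naive versus GFP-naive). On deposited values, Cryab was lower with α9k1 as Hspb2 was, at 9.08 to 9.67 in GFP-crush and 7.50 to 8.35 in α9k1-crush without overlap, and at a mean of 8.85 in GFP-naive and 8.45 in α9k1-naive. Hspb6 had 4.74, 4.69, 4.77, 5.06 and 4.72 in GFP-naive and values from 3.52 to 4.37 with a median of 3.99 in α9k1-naive. After crush it had 5.39, 4.88, 4.58 and 4.75 in GFP-crush and 5.35, 5.33, 5.10 and 4.32 in α9k1-crush. Its α9k1-naive libraries were below all GFP-naive libraries (2.03-fold, log2FC = -1.02, SE = 0.26, adjusted p = 0.0131), and the crush groups overlapped.

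Hspa2 (ENSMUSG00000059970, chr12:76404176-76406934, plus strand), an HSP70 best known from the testis and also expressed in brain, had the largest fall of the 83 genes in α9k1-naive versus GFP-naive. It had 6.71, 6.85, 6.84, 6.85 and 6.58 in GFP-naive and values from 4.86 to 5.39 with a median of 5.06 in α9k1-naive. The crush libraries had 6.66, 6.48, 6.91 and 6.80 in GFP-crush and 6.21, 6.56, 5.78 and 6.44 in α9k1-crush. Every α9k1-naive library was below every other library. Hspa2 was 2.98-fold lower in α9k1-naive compared with GFP-naive (log2FC = -1.57, SE = 0.17, adjusted p = 1.32e-05) and 3.16-fold higher in α9k1-crush than in α9k1-naive (log2FC = 1.66, SE = 0.31, adjusted p = 0.00769). The second call was not made with only those 2 groups in the fit. Others lower in α9k1-naive were Bag2, an inhibitor of the ubiquitin ligase CHIP (log2FC = -0.99, SE = 0.22, adjusted p = 0.00508), Hspa12a, a distant HSP70 relative (log2FC = -0.70, SE = 0.20, adjusted p = 0.0222), and its paralog Hspa12b, known from endothelium (log2FC = -0.58, SE = 0.19, adjusted p = 0.0365, lost without α9k1-naive replicate 6 with adjusted p = 0.167). Neurofilament genes, which mark large sensory neurons, and Schwann cell markers, which myelinating glia express, moved in the same comparisons. In α9k1-naive versus GFP-naive, log2FC was -2.10 for Nefl, -2.42 for Nefm and -2.32 for Nefh, and in α9k1-crush versus α9k1-naive it was 2.73, 2.71 and 2.79, all of them called. These 3 were named after their values were seen. Of the whole list of 9 neuron markers, 4 were called lower and Prph higher in the first of these comparisons, and 4 higher and 0 lower in the other. The Schwann cell markers Mbp, Prx, Pmp22, Mag and Ncmap, a part of the list, were called lower in α9k1-naive compared with GFP-naive (median log2FC = -1.27) and higher in α9k1-crush than in α9k1-naive (2.26). The log2 of their summed level was 12.20 to 12.58 in GFP-naive, 10.99 to 11.40 in α9k1-naive, 12.53 to 13.15 in GFP-crush and 11.70 to 12.71 in α9k1-crush. Fibroblast markers (5 of 6 measured) had 9.42 to 9.74, 6.62 to 8.21, 8.11 to 8.43 and 7.91 to 8.35 in the same order, and the 2 of 5 endothelial markers in the table had 6.01 to 6.58, 3.25 to 5.59, 5.96 to 6.92 and 3.13 to 5.54. The part of these genes and cell types in the values of Hspa2, Hspb2, Hspb6, Bag2, Hspa12a and Hspa12b was not tested.

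Of the 7 measured subunits of CCT, the chamber that folds actin and tubulin, Cct8 was called higher in GFP-crush versus GFP-naive (7.39% of all genes higher and 15.7% lower). None was called in α9k1-naive versus GFP-naive (11.4% and 17.6%), α9k1-crush versus GFP-crush (0.728% and 0.182%) or α9k1-crush versus α9k1-naive (4.47% and 5.27%). With 7 genes, such counts cannot be told from these shares. The log2FC of the 7 subunits ranged from -0.07 (Cct2) to 0.17 (Cct7) in α9k1-naive versus GFP-naive and from -0.35 (Cct2) to 0.06 (Cct8) in α9k1-crush versus GFP-crush. With crush it ranged from 0.04 (Cct7) to 0.34 (Cct8) in GFP ganglia and from -0.25 (Cct2) to 0.46 (Cct8) in α9k1 ganglia. The 95% intervals of the subunits together spanned -0.31 to 0.36 in α9k1-naive versus GFP-naive but -0.83 to 0.61 in α9k1-crush versus GFP-crush, where smaller differences were not detectable. Cct8 had 7.89, 7.95, 7.68, 7.77 and 7.71 in GFP-naive and values from 7.85 to 8.03 with a median of 7.94 in α9k1-naive. After crush, values were 8.20, 8.39, 7.70 and 8.00 in GFP-crush and 8.56, 8.39, 8.62 and 8.62 in α9k1-crush. Its α9k1-crush libraries were above all others, and GFP-crush overlapped both naive groups. The call of Cct8 in GFP-crush versus GFP-naive (log2FC = 0.34, SE = 0.12, adjusted p = 0.0662) was lost without α9k1-naive replicate 4, GFP-crush replicates 1 and 2 or GFP-naive replicates 2, 3 and 4 (adjusted p = 0.109 to 0.227). After crush, Cct4 (7.40 to 7.57 in GFP-crush and 7.63 to 7.78 in α9k1-crush), Cct7 (7.28 to 7.41 and 7.50 to 7.60) and Cct8 were above GFP-crush without overlap in deposited values, while Tcp1, Cct2, Cct3 and Cct5 overlapped. Of all genes, 20.0% lay higher without overlap in that comparison. In the fit the sign of Cct4 and Cct7 was the other one (-0.13 and -0.10), so that their direction depends on the covariates. Among 8 measured genes that deliver proteins to CCT (prefoldin subunits and phosducin-like proteins), Pfdn4 was lower in α9k1-naive compared with GFP-naive (log2FC = -0.37), and none was called in the other comparisons.

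**Figure D3:**
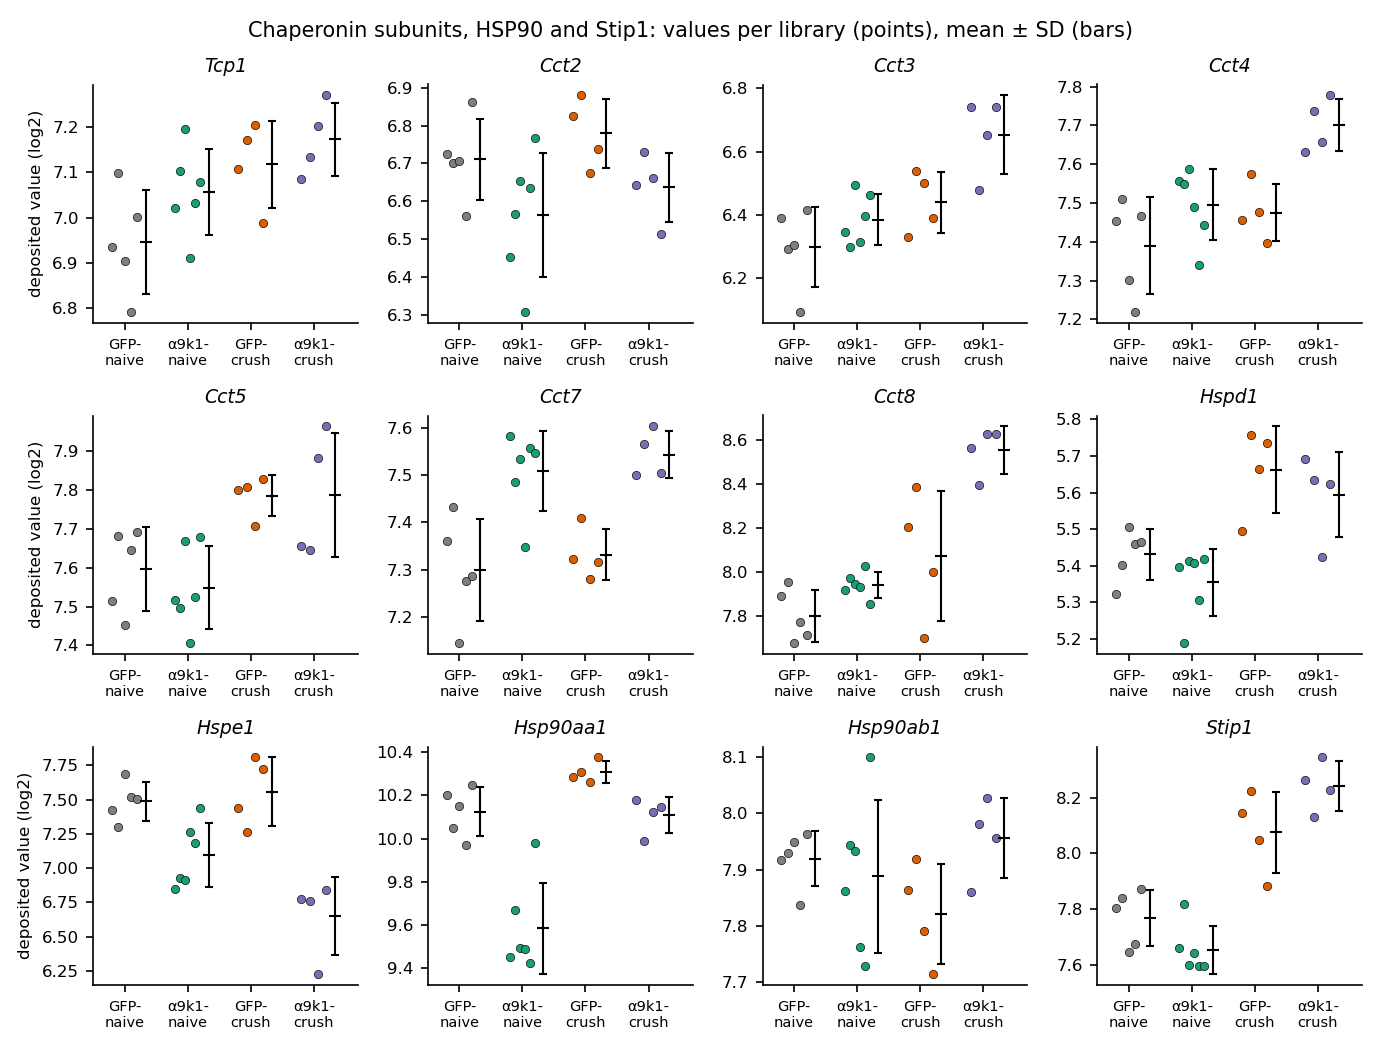
Deposited log2 values (y axes, a scale of its own in each panel) of 7 CCT subunits, the mitochondrial chaperonin subunits Hspd1 and Hspe1, the cytosolic HSP90 genes and Stip1 in the 19 libraries by group (x axes), with points for libraries and bars for the mean ± SD. Cct8 is highest in α9k1-crush, Hspe1 is lowest in α9k1-crush, and Hsp90aa1 is lowest in α9k1-naive.

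The mitochondrial chaperonin consists of the HSP60 ring (Hspd1) and its HSP10 lid (Hspe1), whose genes lie head to head on chromosome 1. Hspd1 had 5.32, 5.40, 5.50, 5.46 and 5.47 in GFP-naive and values from 5.19 to 5.42 with a median of 5.40 in α9k1-naive. In the crush groups, values were 5.50, 5.76, 5.67 and 5.73 in GFP-crush and 5.69, 5.63, 5.43 and 5.62 in α9k1-crush. Hspe1 had 7.42, 7.30, 7.69, 7.52 and 7.51 in GFP-naive and values from 6.84 to 7.44 with a median of 7.05 in α9k1-naive. After crush it had 7.44, 7.27, 7.81 and 7.72 in GFP-crush and 6.77, 6.76, 6.23 and 6.84 in α9k1-crush. On deposited values, Hspe1 was lower in α9k1-crush compared with GFP-crush without overlap, whereas Hspd1 overlapped. The fit called neither gene in any comparison, and the sign for Hspe1 after crush turned with the covariates (log2FC = 0.22, and -0.91 without them). Pseudogenes and overlapping exons share 53.1% of the 31-base words of Hspd1 and 30.5% of those of Hspe1.

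Of the 6 other cochaperones of HSP70 and HSP90, 2 were called lower in α9k1-naive compared with GFP-naive, 2 higher with crush in GFP ganglia and 1 higher with crush in α9k1 ganglia, against 17.6%, 7.39% and 4.47% of all genes. Chordc1 (ENSMUSG00000001774, chr9:18292267-18314000, plus strand), an HSP90 partner that HSF1 induces, had 5.61, 5.88, 5.68, 5.72 and 5.66 in GFP-naive and values from 5.13 to 5.43 with a median of 5.26 in α9k1-naive. The crush libraries had 5.95, 6.15, 5.79 and 5.70 in GFP-crush and 6.46, 6.05, 6.34 and 6.12 in α9k1-crush. It was lower in α9k1-naive compared with GFP-naive without overlap (log2FC = -0.56, SE = 0.12, adjusted p = 0.00299) and higher in α9k1-crush than in α9k1-naive (log2FC = 0.73, SE = 0.21, adjusted p = 0.0548, lost without α9k1-naive replicates 1, 2 and 4 or GFP-naive replicate 1 with adjusted p = 0.108 to 0.187). Ahsa1, which stimulates the ATPase of HSP90, had 7.72, 7.70, 7.66, 7.65 and 7.76 in GFP-naive and values from 7.28 to 7.49 with a median of 7.39 in α9k1-naive, also without overlap (log2FC = -0.32, SE = 0.11, adjusted p = 0.0472; adjusted p = 0.129 with libraries centred on their medians). Stip1 (HOP), which links HSP70 to HSP90, had 7.80, 7.84, 7.64, 7.68 and 7.87 in GFP-naive and values from 7.60 to 7.82 with a median of 7.62 in α9k1-naive. After crush, values were 8.14, 8.22, 8.05 and 7.88 in GFP-crush and 8.26, 8.13, 8.34 and 8.23 in α9k1-crush. Its crush libraries were all above its naive libraries, and it was called in GFP ganglia (log2FC = 0.35, SE = 0.10, adjusted p = 0.0296) and not in α9k1 ganglia (log2FC = 0.34, adjusted p = 0.282). The exchange factors Bag1 (log2FC = 0.42, SE = 0.11, adjusted p = 0.0205) and Hspbp1 (log2FC = 0.29, SE = 0.09, adjusted p = 0.0360) rose with crush in GFP ganglia too, each without overlap of the groups. Bag3, the HSF1-induced partner of Hspb8, had 6.52 to 6.80 in GFP-naive, 6.30 to 6.59 in α9k1-naive, 6.43 to 7.02 in GFP-crush and 6.66 to 6.99 in α9k1-crush and was called in none of the comparisons, and neither were the cochaperones St13 and Ptges3.

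Of 21 other partners of HSP70 and HSP90, 1 was called higher and 2 lower in α9k1-naive versus GFP-naive (11.4% and 17.6% of all genes), 3 and 1 with crush in GFP ganglia (7.39% and 15.7%), and 2 and 0 with crush in α9k1 ganglia (4.47% and 5.27%). In α9k1-naive versus GFP-naive, the immunophilin Fkbp5 was higher (log2FC = 0.63, adjusted p = 0.0310), and Tomm34 (log2FC = -0.48, adjusted p = 0.00545) and the mitochondrial exchange factor Grpel1 (log2FC = -0.29, adjusted p = 0.0988) were lower. In GFP-crush versus GFP-naive, Cdc37, Sugt1 and Grpel1 were higher (log2FC = 0.30 to 0.36) and the ER HSP110 Hyou1 was lower (log2FC = -0.55, adjusted p = 0.0599). Tomm34 and Tomm70a were higher in α9k1-crush than in α9k1-naive (log2FC = 0.65, adjusted p = 0.0618, and log2FC = 0.73, adjusted p = 0.0553), and none was called in α9k1-crush versus GFP-crush.

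Neither heat shock factor passed the test. Hsf1, the factor named above, which is regulated mainly as a protein, had 5.04, 5.16, 5.13, 5.27 and 5.22 in GFP-naive and values from 4.57 to 4.87 with a median of 4.70 in α9k1-naive. In the crush groups, values were 5.13, 4.85, 5.52 and 5.34 in GFP-crush and 4.20, 4.72, 4.66 and 4.91 in α9k1-crush. Its α9k1-naive libraries were below all GFP-naive libraries (exact permutation p = 0.00216), while the fit gave log2FC = -0.41 with an adjusted p of 0.103, just above the threshold. Hsf2 overlapped between α9k1-naive and GFP-naive and between the crush groups, with log2FC = 0.00 and 0.05 (95% intervals -0.32 to 0.33 and -0.66 to 0.76).

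DNAJC genes, J-domain proteins that direct HSP70 to particular places, numbered 25. Of these, 0 were higher and 2 lower in α9k1-naive versus GFP-naive (11.4% and 17.6% of all genes), and 1 was higher and 1 lower in GFP-crush versus GFP-naive (7.39% and 15.7%). With crush in α9k1 ganglia, 0 were higher and 1 lower (4.47% and 5.27%), and 0 were called in α9k1-crush versus GFP-crush. The lower pair in α9k1-naive was Dnajc7, a partner of both HSP70 and HSP90 (log2FC = -0.35, SE = 0.12, adjusted p = 0.0483, lost without α9k1-naive replicate 6 or GFP-naive replicate 4 with adjusted p = 0.116 to 0.174), and Dnajc15, of the mitochondrial inner membrane (log2FC = -0.25, SE = 0.10, adjusted p = 0.0771, lost without α9k1-naive replicates 5 and 6, GFP-crush replicates 2 and 3 or GFP-naive replicates 1, 2, 3 and 4 with adjusted p = 0.103 to 0.232). With crush in GFP ganglia, Dnajc22 rose from 3.13, 2.67, 3.59, 3.52 and 3.56 to 4.39, 4.10, 3.61 and 4.22 without overlap (log2FC = 0.96, SE = 0.31, adjusted p = 0.0501, lost without GFP-crush replicates 1 and 2 or GFP-naive replicate 2 with adjusted p = 0.111 to 0.224). Dnajc16 fell (log2FC = -0.42, SE = 0.15, adjusted p = 0.0796, lost without α9k1-crush replicates 3 and 4, α9k1-naive replicate 6, GFP-crush replicates 1 and 2 or GFP-naive replicates 2, 3 and 5 with adjusted p = 0.101 to 0.238). Dnajc27 was called lower in α9k1-crush compared with α9k1-naive (log2FC = -0.84, SE = 0.24, adjusted p = 0.0538, lost without α9k1-naive replicates 1, 2 and 4 or GFP-crush replicate 2 with adjusted p = 0.107 to 0.127), but its deposited values lay higher in α9k1-crush (3.80, 3.81, 3.75 and 3.75) than in most α9k1-naive libraries (3.12 to 3.82 with a median of 3.57), and without covariates log2FC was 0.28 (adjusted p = 0.188). Its direction cannot be told from these libraries.

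The α9k1 effect was compared between ganglia with and without crush by the interaction term, which is the log2FC of α9k1-crush versus GFP-crush minus that of α9k1-naive versus GFP-naive. Of the 83 genes, 4 had a positive and 1 a negative interaction, against 1.35% and 0.847% of all genes. These counts were 2 and 0 with quantile normalization (1.01% and 1.06% of all genes), which lost Hspa1b, Hspa8 and Hspb1. They were 2 and 1 with median-centred libraries (0.934% and 1.32%), which lost Hspa1b and Hspa8. With the replicate number as a block they were 0 and 0 (0.150% and 0.0554%), and without covariates 27 and 10 (23.3% and 16.1%). Hspa1a and Hspa1b, both among the 4, are not separate measurements. The effect was more positive after crush for Hspa1a (0.58 without and 2.17 after crush, interaction 1.59, SE = 0.38, adjusted p = 0.0651) and Hspa1b (0.78 and 2.27, interaction 1.49, SE = 0.39, adjusted p = 0.0927). It was negative without crush, and positive but not called after crush, for Hspa2 (-1.57 and 0.21, interaction 1.78, SE = 0.36, adjusted p = 0.0298) and Hspa8 (-0.67 and 0.33, interaction 1.01, SE = 0.26, adjusted p = 0.0876). The sign for Hspa2 after crush turned without covariates (log2FC = -0.47). For Hspb1 it turned from 0.52 to -0.53 (interaction -1.05, SE = 0.25, adjusted p = 0.0668). The interaction of Hspa2 was lost without GFP-crush replicate 2 (adjusted p = 0.121), and that of Hspa1a without α9k1-crush replicate 4, α9k1-naive replicates 2, 3 and 4, GFP-crush replicate 2 or GFP-naive replicates 1 and 4 (adjusted p = 0.103 to 0.178). That of Hspb1 was lost without α9k1-crush replicate 1, α9k1-naive replicates 1 and 4, GFP-crush replicate 2 or GFP-naive replicates 1, 3 and 4 (adjusted p = 0.101 to 0.226), that of Hspa1b without α9k1-crush replicates 1 and 4, α9k1-naive replicates 2, 3, 4 and 5, GFP-crush replicate 2 or GFP-naive replicates 1, 2, 3, 4 and 5 (adjusted p = 0.110 to 0.231) and that of Hspa8 without α9k1-crush replicates 1, 3 and 4, α9k1-naive replicates 1, 2, 3, 4 and 6, GFP-crush replicates 2 and 4 or GFP-naive replicates 1, 3, 4 and 5 (adjusted p = 0.1003 to 0.226). Dnajb1, Hspa5, Hsp90b1 and Hsph1 had no called interaction (adjusted p = 0.554, 0.484, 0.440 and 0.524), so that a difference of their α9k1 effect between the 2 conditions was not shown. Nefm and Nefh had a positive interaction too, as had 2 of the 5 Schwann cell markers and 4 of the 5 fibroblast markers. The satellite glia marker Fabp7 and the macrophage marker Cd74 had a negative one. Of 13 immediate early genes, 0 had one.

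**Figure D4:**
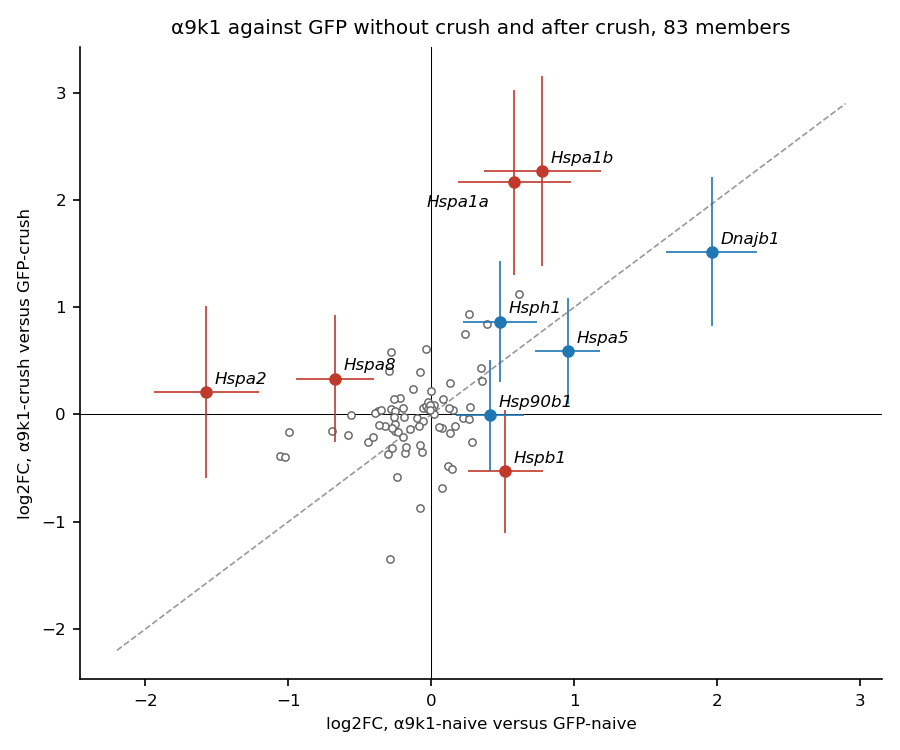
Log2 fold change of α9k1 over GFP without crush (x axis) and after crush (y axis) for the 83 genes, with red for genes with a called interaction, blue for Dnajb1, Hspa5, Hsp90b1 and Hsph1, open points for all others, bars for 95% intervals and a dashed line where both effects are equal. Hspa1a and Hspa1b lie above the line at 2.17 and 2.27 after crush, Hspa2 and Hspa8 lie to the left of it, and Hspb1 lies below it.

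Comparisons that include α9k1-crush rest on the covariates more than the others. With the covariates in the fit, the variance of a difference, relative to the variance within groups, was 3.11 in α9k1-crush versus GFP-crush and 0.654 in α9k1-naive versus GFP-naive, against 0.50 and 0.367 without them. It was 2.12 in α9k1-crush versus α9k1-naive (0.417 without them) and 0.662 in GFP-crush versus GFP-naive (0.45), and 74.5% of the variance of the third component lay between the groups. On deposited values, libraries of α9k1-crush lay above those of GFP-crush for 26 of the 83 genes and below them for 13, without overlap of the libraries, against 20.0% and 20.8% of all genes. Without covariates, 31 were called higher and 24 lower there, against 29.6% and 28.3% of all genes. Beside the genes above, the 26 include Hspa4l, an HSP110 relative induced by osmotic and heat stress. Hspa4l had 5.82, 5.96, 5.23 and 5.39 in GFP-crush and 6.97, 6.48, 6.88 and 6.64 in α9k1-crush, with log2FC = 0.40 (SE = 0.50, adjusted p = 0.876) in the fit with covariates and 1.14 (adjusted p = 0.000207) in the fit without them. In the other comparisons, libraries did not overlap for 7 higher and 12 lower genes in α9k1-naive versus GFP-naive (8.43% and 13.2% of all genes), 9 and 8 in GFP-crush versus GFP-naive (7.59% and 12.2%), and 28 and 14 in α9k1-crush versus α9k1-naive (17.4% and 16.1%).

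Heat shock elements were searched in the RefSeq promoters (250 bases before to 50 bases after the start), of which 66 of the 83 genes had at least 1 by symbol. The element was taken as GAANNTTC or TTCNNGAA, each of which reads the same on both strands, and as the longer form with 1 more block in phase. Matches of the longer form hold the shorter ones. At least 1 of the short forms occurred in 19 of the 66 genes (28.8%), against 17.0% of 27025 genes and 15.1% of 32851 promoters. The longer form occurred in 5 (7.58%), against 0.662% of genes and 0.603% of promoters.

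These 5 are the chaperonin genes Hspd1 and Hspe1, Hsph1, Chordc1 and Dnajb6. The runs of blocks in phase in 4 of them are shown, since few promoters hold such a run, with the blocks in capitals. Hspd1 and Hspe1 share 1 run of 4 blocks between them, on opposite strands, so that it counts for both genes:
Hsph1 (chr5:149636288-149636300, minus strand, 3 blocks, from 15 bases after the start): TTCtgGAAagTTC
Chordc1 (chr9:18292263-18292285, plus strand, 5 blocks, from 4 bases before the start): GAAcgTTCggGAAaaTTCctGAA
Hspe1 and Hspd1 (chr1:55088059-55088076, plus strand, 4 blocks, from 89 bases before the start of Hspe1): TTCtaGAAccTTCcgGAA

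Genes with an element were found among those called higher, those called lower and those not called, and a link between element and direction was not tested. Of the 10 genes called higher in α9k1-naive than in GFP-naive, 9 had a promoter, and 6 of these held a short form (Hspa1a, Hspa1b, Hspb1, Hspb8, Hsph1 and Dnaja1), while Hspa5 and Hsp90b1 held the ER element. The windows of Hspa1a and Hspa1b differ in 1 of 150 bases, so that these 2 genes are not separate cases. Of the 12 called lower, 9 had a promoter, and 2 held a short form (Chordc1 and Hspb6). Of the 61 that were not called, 48 had a promoter, and 11 held one, among them Hspd1, Hspe1, Cct2, Cct5, Dnajb4 and Bag3. Dnajb1, with the largest rise in that comparison, held none in the window, which covers these letters and this stretch only.

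**Figure D5:**
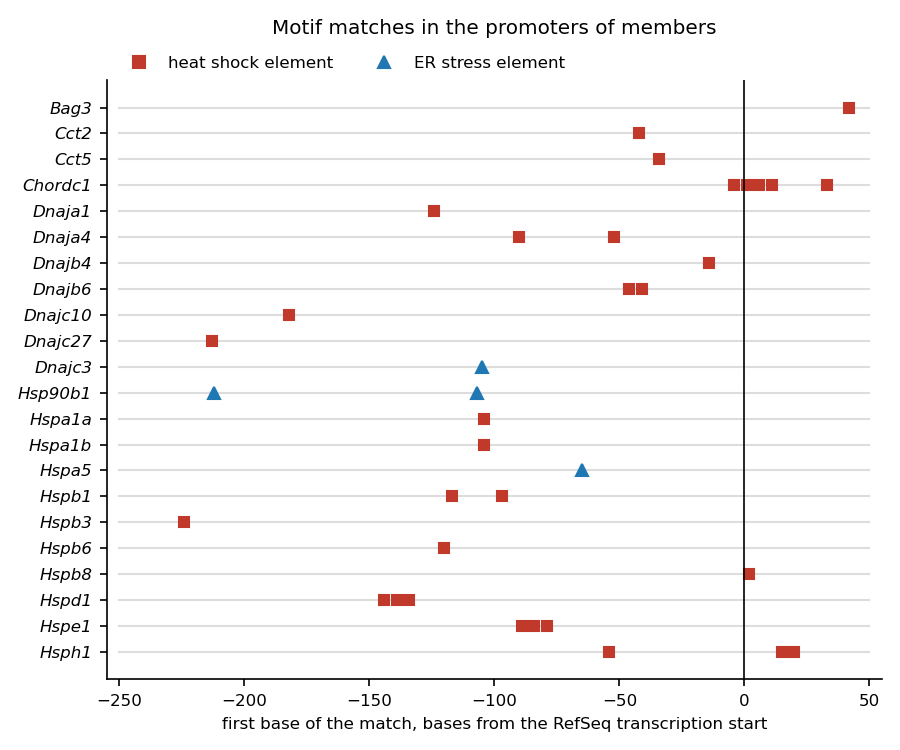
Positions of heat shock elements (squares) and of the ER stress element (triangles) relative to the RefSeq transcription start (x axis, in bases) for the 22 genes with a match (y axis). Matches lie on both sides of the start, and those of Hspa1a and Hspa1b are at the same distance of 104 bases before it.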

How the data were processed

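According to the methods of the study, the authors prepared libraries with SMART-Seq v4, used STAR for alignment to the mouse build mm10/GRCm38, dropped pairs whose ends lay on different chromosomes (SAMtools), counted fragments per gene with Salmon and normalized with cqn. Versions are not given in the sources used here. Each log2 value, for 1 gene in 1 library, was deposited after the authors had removed genes with few counts and added a small pseudocount. The values carry no gene names, and the order was taken from the authors' gene table of the same 12629 rows, in which Fermt1 and Itga9 ranked 1 and 2 of all genes by the difference of α9k1-crush and GFP-crush means, and 3 and 181 by that of α9k1-naive and GFP-naive means. The columns of that table with the authors' own log2 fold changes, p-values and adjusted p-values, as deposited, were not used.

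The authors' deposited library metrics hold counts of reads and bases, fractions of them, dropout as a percent, coverage biases as a ratio, and columns of other kinds such as reads by strand. Their 48 columns were scaled, and the first 3 principal components (45.9%, 24.1% and 11.5% of the variance) were the covariates. The model of the study has batch as a further term, which the sample table lacks and which was therefore left out. A limma fit (limma 3.58.1, R 4.3.3) took all 19 libraries with 4 group means. Intervals are 95% intervals from its moderated statistic. Single values were compared by 2-sided exact permutation tests, whose smallest p is 0.00216 (6 against 5 libraries), 0.0286 (4 against 4), 0.00794 (4 against 5) or 0.00476 (4 against 6). The counting error of single values is not known from normalized values, and the SD between libraries includes it. Replicates of a group correlated at r = 0.948 to 0.976, and no pair shared more than 3 identical values.

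The members, lists and tests were chosen with earlier results of these data known. Genes named are the major stress-inducible, chaperonin and ER chaperones, the factors, up to 6 called members with the largest and up to 6 with the smallest log2FC in each comparison, the ends of a range and members of a count of 5 or fewer. 1 gene of the Schwann cell list is not reported here, and its counts leave it out. Shared 31-base words and overlaps were computed from the GENCODE M21 annotation. Alternatives were a fit without covariates, with only the 2 groups compared, with the 25% of genes with the lowest means removed, with a pseudocount of 1, with quantile normalization, with median-centred libraries, with the replicate number as a block, and without each of the 19 libraries. Promoters come from RefSeq (GRCm38.p6). Tables and figures were made with Python 3.11.15, pandas 2.3.3, numpy 2.4.6 and matplotlib 3.10.9.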

Additional observations from a re-analysis of the deposited data

Results flagged for a closer look

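A library that stood apart from the rest of its group by Dixon's criterion was found in 12 of the 224 groups of values tested (56 named genes in 4 groups), where chance gives about 1 in 20. On the deposited log2 scale, Dnajb11 was at 5.84 in α9k1-crush replicate 2, against 5.603 to 5.63 in the other libraries of that group. Dnajb4 was at 6.66 in α9k1-crush replicate 1, against 6.42 to 6.45 in the other libraries of that group. Dnajb6 was at 4.93 in GFP-crush replicate 3, against 5.04 to 5.05 in the other libraries of that group. Dnajb9 was at 5.15 in α9k1-naive replicate 2, against 5.34 to 5.45 in the other libraries of that group. Dnajc10 was at 5.65 in α9k1-crush replicate 2, against 6.32 to 6.40 in the other libraries of that group. Dnajc16 was at 1.89 in GFP-crush replicate 1, against 2.299 to 2.37 in the other libraries of that group. Dnajc25 was at 3.63 in α9k1-naive replicate 3, against 4.07 to 4.31 in the other libraries of that group. Dnajc3 was at 3.98 in GFP-naive replicate 2, against 4.22 to 4.26 in the other libraries of that group. Hspa1b was at 8.72 in GFP-naive replicate 4, against 8.41 to 8.49 in the other libraries of that group. Hspb6 was at 5.06 in GFP-naive replicate 4, against 4.69 to 4.77 in the other libraries of that group. Hspe1 was at 6.23 in α9k1-crush replicate 3, against 6.76 to 6.84 in the other libraries of that group. Stip1 was at 7.82 in α9k1-naive replicate 2, against 7.596 to 7.66 in the other libraries of that group. Of these libraries, α9k1-naive replicate 2, α9k1-crush replicate 2 and GFP-naive replicate 4 stood apart for 2 genes each.

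The interaction term of the limma fit, which sets the α9k1 effect after crush against the naive one, was called for 5 genes. All 5 calls were lost without GFP-crush replicate 2, and all 5 with the replicate number as a block. Those of Hspa1b, Hspa8 and Hspb1 were lost with quantile normalization, and those of Hspa1b and Hspa8 with median-centred libraries. The difference of the 2 effects (log2) was 1.59 for Hspa1a, 1.49 for Hspa1b, 1.78 for Hspa2, 1.01 for Hspa8 and -1.05 for Hspb1. Schwann cell markers had 2 positive interactions among 5 and fibroblast markers 4 among 5 measured, and the neuron markers Nefm and Nefh had positive ones. The satellite glia marker Fabp7 (-1.23) and the macrophage marker Cd74 (-2.01) had negative ones. Their part in these values was not tested.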

How the results depend on the processing

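Counts of called members are given as higher and lower, against 10 and 12 for α9k1-naive versus GFP-naive, 3 and 0 for α9k1-crush versus GFP-crush, 6 and 8 for GFP-crush versus GFP-naive, 3 and 5 for α9k1-crush versus α9k1-naive, and 4 positive and 1 negative interactions. Without covariates they were 16 and 27, 31 and 24, 10 and 9, 38 and 14, and 27 and 10. The shares of all genes were then 16.5% and 29.5%, 29.6% and 28.3%, 11.0% and 20.1%, 28.5% and 27.1%, and 23.3% and 16.1%. With only the 2 groups compared they were 9 and 9, 0 and 0, 1 and 4, and 0 and 0, from fewer libraries. The shares of all genes were 9.45% and 14.0%, 0% and 0%, 2.07% and 5.24%, and 0.507% and 1.09%. With the replicate block they were 6 and 9, 1 and 0, 7 and 8, 2 and 3, and 0 and 0. The shares of all genes with this block were 8.96% and 10.4%, 0.420% and 0.0317%, 6.88% and 14.8%, 1.23% and 1.39%, and 0.150% and 0.0554%. Quantile normalization gave 2 and 0 in α9k1-crush versus GFP-crush (0.618% and 0.182% of all genes), and 2 positive and 0 negative interactions (1.01% and 1.06%). Median-centred libraries gave 13 and 6 in GFP-crush versus GFP-naive (14.5% and 9.34% of all genes), and 2 positive interactions (0.934%). Under these settings, a filter on low values and a pseudocount of 1, all other counts stayed within 1.5 times those of the report. Without 1 library they ranged from 7 to 11 and 10 to 14, 1 to 3 and 0 to 0, 3 to 7 and 6 to 9, 2 to 4 and 3 to 6, and 0 to 5 and 0 to 1.

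Without covariates, the sign of log2FC turned in 30 of the 83 members in α9k1-crush versus GFP-crush, 26 in α9k1-crush versus α9k1-naive, 11 in α9k1-naive versus GFP-naive, 7 in GFP-crush versus GFP-naive and 25 interactions. Values of named members that turned and were called in either fit are given here. In α9k1-crush versus GFP-crush, log2FC became 0.23 for Cct4, 0.21 for Cct7, 0.35 for Chordc1, 1.13 for Dnajc27, 0.70 for Dnajc6, 0.22 for Hsp90b1, 0.66 for Hspa12a, 0.49 for Hspa12b, -0.47 for Hspa2, 0.27 for Hspb8, -0.91 for Hspe1 and -0.22 for Ptges3. In α9k1-crush versus α9k1-naive it became 0.27 for Cct3, 0.21 for Cct4, 0.28 for Dnajc27, 0.31 for Hspb8 and -0.45 for Hspe1, and the interaction became 0.67 for Dnajc27, -0.36 for Dnajc3, -1.42 for Hspb3, -0.52 for Hspe1 and 0.28 for Stip1. Dnajc27 in α9k1-crush versus α9k1-naive was the single one of these values called with covariates. The cause was not tested.

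Groups share replicate numbers in the labels, but same-numbered libraries did not deviate together (r = -0.27 to 0.15 over 25 pairs, against -0.22 to 0.26 for other pairs), so that the numbers do not pair the libraries. Read depth per gene is unknown, and the wide intervals after crush limit what could be called there.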

Other observations

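Members that were called in none of the comparisons also hold wide ranges. Hspb3, a small heat shock protein known from muscle, had the widest spread within groups of the 83 genes, with group means from 0.93 in α9k1-crush to 3.37 in α9k1-naive and a pooled SD of 0.74. Its log2FC was 0.61 in α9k1-naive versus GFP-naive (SE = 0.48, adjusted p = 0.393), the highest of the small heat shock proteins. In α9k1-crush versus GFP-crush the fit also gave it the highest (1.12, SE = 1.05, adjusted p = 0.815), against the order of the deposited means, and -0.53 without covariates. Dnajb3 had the lowest log2FC of the DNAJB genes after crush (-1.34, SE = 0.40, adjusted p = 0.247). Dnajc25 had the lowest of the DNAJC genes in α9k1-crush versus α9k1-naive (-1.19, SE = 0.44, adjusted p = 0.132), and its libraries did not overlap between these groups. Dnajc6 (auxilin), which recruits Hspa8 to clathrin coats, had the lowest in α9k1-naive versus GFP-naive (-0.44, SE = 0.21, adjusted p = 0.142).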
